A study of Mus musculus with 7 samples.

Results

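The genes described here encode 8 receptors by which neutrophils and other myeloid cells sense inflammatory signals: Fpr1, Fpr2, C5ar1, C5ar2, C3ar1, Ltb4r1, Ptafr and Hcar2. They were chosen by name, and the chromatin state inside each gene and within 20 kb of its ends was read in 2 segmentations of the mouse genome. They are 8 of the 21631 protein-coding genes on chromosomes 1 to 19 and X, and lie at 6 separate loci, because Fpr1 and Fpr2 are neighbours and so are C5ar1 and C5ar2.

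The cells were bone marrow-derived mouse leukaemia cells on a BALB/c background that carried mutant CSF3R, through which granulocyte colony-stimulating factor (G-CSF) acts, and mutant CEBPA, which in its normal form drives granulocyte development, both introduced by retrovirus. Treated cells received GSK-LSD1, an inhibitor of the histone demethylase LSD1, at 4 nM for 48 h, and the control cells received DMSO for the same time, so both carried the same mutant genes. H3K4me1, H3K4me3 and H3K27Ac were each immunoprecipitated once per treatment, with 1 input library. From the 3 marks the authors deposited 1 segmentation per treatment, in which every stretch of the genome has 1 of 6 states, E1 to E6. There are therefore no replicates, and each difference below is a difference between these segmentations, with no test and no p-value. The files hold no counts, and so the depth behind each call is unknown.

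Chemoattractant receptors are G protein-coupled receptors at the cell surface. They bind bacterial peptides, complement fragments or lipids released at sites of damage, and they act through Gi proteins to direct migration, degranulation and the oxidative burst. Neutrophils acquire many of them late in maturation. Fpr1 and Fpr2 are the formyl peptide receptors, and Fpr2 also binds serum amyloid A and annexin A1. C5ar1 is the receptor for the complement fragment C5a, C5ar2 binds C5a without coupling to G proteins, and C3ar1 binds C3a. Ltb4r1 is the high-affinity receptor for leukotriene B4, and Ptafr is the receptor for platelet-activating factor. Hcar2 binds nicotinic acid, ketone bodies and butyrate. It is a receptor of neutrophils and macrophages but not a classical chemoattractant receptor.

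The marks behind each state are not stated in the sources used here, and the states are described by their position. E3 covered 70.1% of the genome in GSK-LSD1 and 73.3% in DMSO and is taken as background. E2 was the broad second state, at 19.3% in GSK-LSD1 and 21.3% in DMSO. At gene ends, E5 and E6 reached 10.1 and 7.85 times their genome share in GSK-LSD1 and 13.3 and 9.45 times in DMSO, and both are here named TSS-type, for transcription start site. E4 lay there at 2.65 times its genome share in GSK-LSD1 and 2.86 times in DMSO. The whole genome moved by state number too: E1 covered 4.72% in GSK-LSD1 and 0.483% in DMSO, and E6 covered 2.08% in GSK-LSD1 and 0.217% in DMSO. Relative to chance, DMSO states E2 and E4 overlapped another number more than their own in GSK-LSD1 (E1 and E5). DMSO E1 overlapped E6 and E1 almost equally, at 12.97 and 12.95 times chance. By share of bins in or within 20 kb of protein-coding genes, E1, E2 and E4 most often kept their number, at 62.8%, 62.0% and 27.4%. Even so, 1 number may mean different marks in the 2 segmentations. This applies to every value by number below. A segmentation also pools many cells, so a mark in more cells and more of a mark in each cell cannot be told apart.

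The myeloid label was checked at the starts of marker genes. A TSS-type state within 1 kb of the start was present for 9 of 10 myeloid markers in GSK-LSD1 and 5 of 10 in DMSO. In DMSO it was missing at Csf3r, Mpo, Elane, Itgam and Cd33, and in GSK-LSD1 at Cd33. None of 3 B cell or 3 T cell markers had it in either segmentation. It was present at 1 of 3 erythroid markers and 2 of 3 endothelial and stromal markers in each, and at 2 mast cell markers in GSK-LSD1 and 1 of 2 in DMSO. Among all protein-coding genes it was present at 57.4% in GSK-LSD1 and 55.9% in DMSO. The part that cells of another type or stage have in the results below was not tested.

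The promoter sequences show what lay at the receptor starts whose state differed. All are the 250 bases before the start in the RefSeq promoter table (GRCm38.p6), written 5′ to 3′ along the gene, and the receptors with a match to any of 6 transcription factor motifs are shown, with the match in capitals. For C5ar1 the start in the promoter table lies inside the annotated gene.
Fpr1, chr17:17883940-17884189, minus strand: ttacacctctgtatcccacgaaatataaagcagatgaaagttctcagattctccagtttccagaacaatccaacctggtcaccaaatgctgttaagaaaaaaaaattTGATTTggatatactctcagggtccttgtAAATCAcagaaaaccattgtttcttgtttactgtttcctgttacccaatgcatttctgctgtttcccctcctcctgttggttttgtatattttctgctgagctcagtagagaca
Fpr2, chr17:17887574-17887823, plus strand: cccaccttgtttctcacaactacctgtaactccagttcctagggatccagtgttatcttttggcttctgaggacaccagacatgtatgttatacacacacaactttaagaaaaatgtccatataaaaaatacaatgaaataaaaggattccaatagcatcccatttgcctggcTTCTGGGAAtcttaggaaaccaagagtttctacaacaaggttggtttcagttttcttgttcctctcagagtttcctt
C5ar1, chr7:16259339-16259588, minus strand: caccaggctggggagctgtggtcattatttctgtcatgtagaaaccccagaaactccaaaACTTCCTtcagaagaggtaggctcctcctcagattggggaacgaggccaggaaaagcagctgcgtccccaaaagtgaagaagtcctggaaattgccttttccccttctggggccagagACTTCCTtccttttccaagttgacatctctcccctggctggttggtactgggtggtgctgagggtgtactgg
C5ar2, chr7:16244155-16244404, minus strand: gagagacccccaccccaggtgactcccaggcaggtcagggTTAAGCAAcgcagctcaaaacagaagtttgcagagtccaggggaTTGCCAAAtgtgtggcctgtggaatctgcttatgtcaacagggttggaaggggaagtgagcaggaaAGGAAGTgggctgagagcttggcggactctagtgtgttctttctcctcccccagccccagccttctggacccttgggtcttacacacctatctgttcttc
C3ar1, chr6:122856158-122856407, minus strand: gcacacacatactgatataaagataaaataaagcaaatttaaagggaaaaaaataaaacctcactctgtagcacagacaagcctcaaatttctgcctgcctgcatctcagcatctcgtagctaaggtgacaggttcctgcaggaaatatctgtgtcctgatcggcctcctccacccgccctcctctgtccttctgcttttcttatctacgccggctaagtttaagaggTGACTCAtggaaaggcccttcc

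The motifs were searched on both strands, in 1 promoter for each of 17274 genes, and the matches in these promoters did not overlap one another. The letters of the GFI1 motif, AAATCA, were in the Fpr1 promoter, 143 to 138 and 114 to 109 bases before the start, and in 11.6% of all promoters. GFI1 is a repressor that recruits LSD1. PU.1, a master regulator of myeloid genes, was searched as AGGAAGT, which was in 7.44% of all promoters. It matched C5ar1 at 190 to 184 and 72 to 66 bases before the start and C5ar2 at 100 to 94 bases before it. The C/EBP motif TTGCNNAA, the kind of site that CEBPA binds, was in the C5ar2 promoter at 210 to 203 and 166 to 159 bases before the start, and in 9.22% of all promoters. The STAT motif TTCNNNGAA matched Fpr2, 77 to 69 bases before the start, and 6.77% of all promoters. The AP-1 motif TGANTCA matched C3ar1, 22 to 16 bases before the start, and 6.27% of all promoters. The RUNX motif TGTGGTT matched none of the 7 receptor promoters in the table, against 3.9% of all promoters, and the Ltb4r1 and Ptafr promoters held none of the 6 motifs. A match describes letters, not binding. Together the 7 promoters were poor in CG dinucleotides, with a median of 2.0 and a range of 0.0 to 5.0 in 250 bases, against a median of 10 over all promoters. Their GC content ranged from 38.4% at Fpr1 to 56.8% at Ltb4r1, with a median of 52.8% against 55.6% over all promoters.

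Around the receptors, more chromatin was in states other than E2 and background in GSK-LSD1 than in DMSO. The 8 windows cover 315.8 kb when overlaps are counted once. E1, E4, E5 and E6 together held 169.4 kb of this in GSK-LSD1 and 69.8 kb in DMSO, a ratio of 2.43, against a ratio of 1.86 over the windows of all protein-coding genes. In GSK-LSD1 105.6 kb was in one of these states that had not been in DMSO, 63.8 kb was in one of them in both, and 6.0 kb was in one of them in DMSO alone. All 8 receptors had at least 1 kb more in GSK-LSD1, as did 64.4% of all protein-coding genes. The receptors' median difference was 16.9 kb, against 3.6 kb over all genes. The smallest difference was at Ltb4r1, with 32.4 kb in GSK-LSD1 and 28.2 kb in DMSO, and the largest at Ptafr, with 39.0 kb in GSK-LSD1 and 9.8 kb in DMSO. Grouping these states together, and reading E4 alone, were choices made after the data had been seen.

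**Figure D1:**
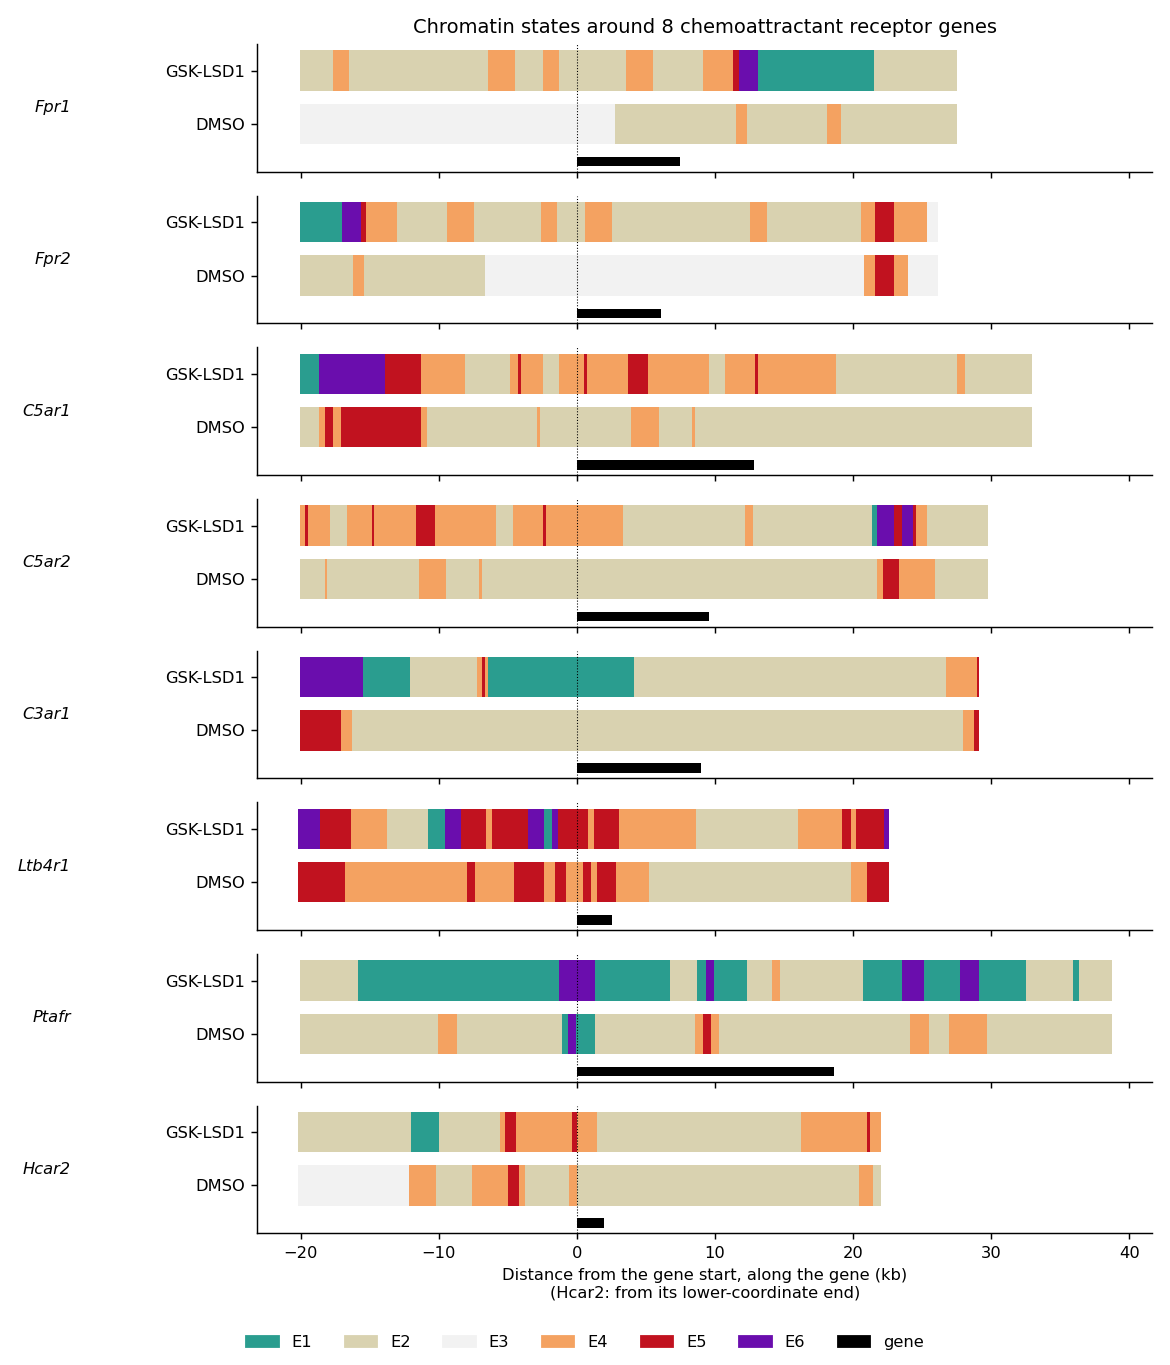
Chromatin states around the 8 receptor genes, in kb from the gene start along the gene (for Hcar2, from its lower-coordinate end), with the GSK-LSD1 segmentation above the DMSO segmentation and the gene as a black bar. E4 stretches lie over C5ar1 and C5ar2 in GSK-LSD1, E1 stretches lie around C3ar1 and Ptafr, and the background state E3 on the Fpr1 and Fpr2 start regions is seen in DMSO alone.

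The formyl peptide receptors lie on chromosome 17, Fpr1 at chr17:17876471-17883939 on the minus strand and Fpr2 at chr17:17887824-17893952 on the plus strand, so that their starts face each other. Background chromatin covered this interval in DMSO and was almost gone in GSK-LSD1. The Fpr1 window held 0.0 kb of E3 in GSK-LSD1 and 22.8 kb in DMSO, and the Fpr2 window held 0.8 kb in GSK-LSD1 and 29.6 kb in DMSO. A window with at least 10 kb less E3 was found for 2 of 8 receptors, these neighbours with overlapping windows, and for 18.4% of all protein-coding genes. At both starts the state was E2 in GSK-LSD1 and E3 in DMSO. Of the chromatin that was E3 in DMSO, 80.7% in the Fpr1 window and 77.0% in the Fpr2 window was E2 in GSK-LSD1, and the rest was E4 apart from 2.7% of the Fpr2 window's E3 that was still E3. Inside each gene E4 covered 2.0 kb in GSK-LSD1 and 0.0 kb in DMSO.

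No TSS-type state lay at either Fpr start in either segmentation. The only TSS-type region of the Fpr1 window was at chr17:17870801-17872600 in GSK-LSD1, 1.8 kb long and mostly E6, beyond the gene's far end and 11.3 kb from its start. It had no TSS-type counterpart in DMSO, where E4 covered 0.8 kb from 11.5 to 12.3 kb from the start. A run of E1 8.4 kb long adjoined it in GSK-LSD1. The same region lies in the Fpr2 window, which also held a 1.4 kb E5 region 21.6 kb from the Fpr2 start that was identical in both segmentations.

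Of the other formyl peptide receptor genes, Fpr3, Fpr-rs3, Fpr-rs4, Fpr-rs6 and Fpr-rs7 each had 0.0 kb of E1, E4, E5 and E6 in both segmentations. Several of these mouse genes are expressed in vomeronasal sensory neurons. These receptor genes are close relatives, and the sources used here do not say how reads matching several of them were treated.

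The complement fragment receptors C5ar1 (chr7:16246743-16259540) and C5ar2 (chr7:16234587-16244154) lie in tandem on the minus strand of chromosome 7, and C3ar1 (chr6:122847140-122856157) on the minus strand of chromosome 6. C5ar1 had more E4 area in GSK-LSD1 than any other receptor, 23.0 kb in the window, against 3.8 kb in DMSO. Only 6 of the 21631 protein-coding genes had a larger E4 difference than its 19.2 kb. C5ar2 had 20.4 kb of E4 in GSK-LSD1 and 5.4 kb in DMSO, and 28 genes had a larger difference. The windows of C5ar1 and C5ar2 overlap, so these values share much of the same chromatin.

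E4 lay over the genes themselves. Inside C5ar1 it covered 10.2 kb in GSK-LSD1 and 2.2 kb in DMSO, and inside C5ar2 it covered 3.4 kb in GSK-LSD1 and 0.0 kb in DMSO. Both starts were E4 in GSK-LSD1 and E2 in DMSO. Among bins nearer to C5ar1 than to any other protein-coding gene, E4 was still 14.6 kb in GSK-LSD1 and 2.4 kb in DMSO, a difference of 12.2 kb.

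Within the E4 stretch, C5ar1 held short TSS-type regions in GSK-LSD1 that overlapped none in DMSO. One, chr7:16254401-16255800, was 1.4 kb of E5 from 3.74 to 5.14 kb inside the gene, where DMSO had E4 from 3.94 to 5.94 kb. Others of 0.2 kb lay 540 bp inside the gene, 4061 bp before its start and just beyond its far end. The long TSS-type region of the C5ar1 window, 7.4 kb in GSK-LSD1 and 5.8 kb for its largest overlapping region in DMSO, covers the start of Inafm1. In GSK-LSD1 4.8 kb of it was E6, and in DMSO none was. The TSS-type area of the C5ar2 window, 4.8 kb in GSK-LSD1 and 1.2 kb in DMSO, lay in part at Dhx34. It covered the Dhx34 start in GSK-LSD1 and missed it by 78 bp in DMSO. No bin of that area was nearer to the C5ar2 gene than to any other protein-coding gene. By distance to starts, 1 region of 0.2 kb in GSK-LSD1 had C5ar2 as its nearest, 2247 bp away.

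C3ar1 differed in another state. E1 covered 14 kb of its window in GSK-LSD1 and 0.0 kb in DMSO, and a single run of 10.6 kb spanned the start, most of it before the gene and the rest up to 4.16 kb inside it. The start bin was E1 in GSK-LSD1 and E2 in DMSO. E4 in the C3ar1 window was 2.8 kb in GSK-LSD1 and 1.6 kb in DMSO, and none lay in the gene in either. Its TSS-type area, 5.0 kb in GSK-LSD1 and 3.4 kb in DMSO, lay mostly at the start of Necap1, and only 0.2 kb in GSK-LSD1 and 0.0 kb in DMSO was nearest to C3ar1.

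Starts with E1, E4, E5 or E6 in GSK-LSD1 and E2 or E3 in DMSO were thus found at 3 of 8 receptors, the complement receptors C5ar1, C5ar2 and C3ar1. Among all protein-coding genes 3.53% had such a start, a share that includes genes whose start was not E2 or E3 in DMSO. C5ar1 and C5ar2 are a tandem pair, so these starts are at 2 loci.

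**Figure D2:**
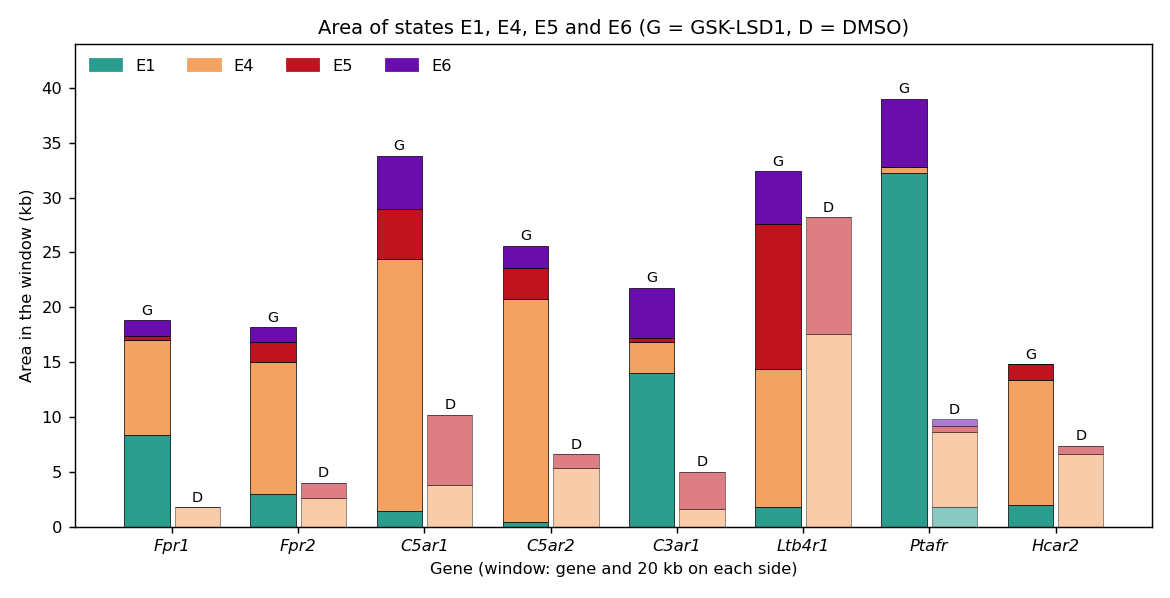
Area of states E1, E4, E5 and E6 (kb, stacked) in each receptor's window, in GSK-LSD1 (G, left bar) and DMSO (D, right and paler bar), with 1 segmentation each. E4 makes up most of the GSK-LSD1 bar at C5ar1 (23.0 kb), C5ar2 (20.4 kb) and Fpr2 (12 kb), and E1 most of it at Ptafr (32.2 kb) and C3ar1 (14 kb).

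The lipid mediator receptors are Ltb4r1 (chr14:55765962-55768492, plus strand) and Ptafr (chr4:132564067-132582683, plus strand). Ltb4r1 was the receptor with the most TSS-type chromatin already in DMSO. Its window held 18 kb in GSK-LSD1 and 10.6 kb in DMSO, a difference exceeded by 9.08% of genes. Much of that area lay in regions that cover the starts of neighbours in both segmentations, among them Nop9, Cideb and Ripk3, or lie at or near the start of Ltb4r2, the low-affinity leukotriene B4 receptor. Nearest to Ltb4r1 itself were 3.4 kb in GSK-LSD1 and 2.2 kb in DMSO. The region over the start, chr14:55764201-55766800, was 2.6 kb long in GSK-LSD1. In DMSO 2 regions of 0.8 and 0.6 kb lay in the same place and left the start bin between them in E4. Inside the gene E5 covered 2.4 kb in GSK-LSD1 and 1.8 kb in DMSO. E4 ran the other way from C5ar1, with 12.6 kb in the Ltb4r1 window in GSK-LSD1 and 17.6 kb in DMSO.

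Ptafr had the largest E1 and E6 area of the receptors, 38.4 kb in GSK-LSD1 and 2.4 kb in DMSO, a difference exceeded by 5.78% of genes. It was also the only receptor with any E1 or E6 in DMSO, both at its start. There a 2.6 kb E6 region, chr4:132562801-132565400, covered the start in GSK-LSD1, against 0.6 kb of E6 ending 67 bp before the start in DMSO, and the start bin itself was E6 in GSK-LSD1 and E1 in DMSO. E1 flanked it in GSK-LSD1 over 14.6 kb before and 5.4 kb after. The stretch before it reached into the neighbouring gene Dnajc8, which ends inside the window. Among bins nearest to Ptafr, E1 and E6 together were 27.6 kb in GSK-LSD1 and 2.4 kb in DMSO, a difference of 25.2 kb.

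Beyond the far end of Ptafr, E6 regions of 1.6 and 1.4 kb lay 23.5 and 27.7 kb from the start in GSK-LSD1. They overlapped no TSS-type region in DMSO, where E4 stretches of 1.4 and 2.8 kb began 24.1 and 26.9 kb from the start. In all, E4 covered 0.6 kb of the Ptafr window in GSK-LSD1 and 6.8 kb in DMSO, and of the DMSO E4 58.8% was E1 and 38.2% E6 in GSK-LSD1. All of the Ptafr window's TSS-type area, 6.2 kb in GSK-LSD1 and 1.2 kb in DMSO, was nearest to Ptafr.

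Hcar2 (chr5:123863570-123865516) has no strand in the gene table, so both ends were read. At the lower-coordinate end the state was E5 in GSK-LSD1 and E4 in DMSO, and at the other end it was E2 in both. That E5 region was 0.4 kb long and overlapped no TSS-type region in DMSO. The whole Hcar2 window held 1.4 kb of TSS-type chromatin in GSK-LSD1 and 0.8 kb in DMSO, the smallest difference of the receptors. E4 covered 11.4 kb of it in GSK-LSD1 and 6.6 kb in DMSO, and 8.0 kb that was background in DMSO was E2 in GSK-LSD1. Among bins nearer to Hcar2 than to any other protein-coding gene, E4 was nearly equal, 5.8 kb in GSK-LSD1 and 5.6 kb in DMSO. Below that end, a 2.0 kb run of E1 in GSK-LSD1 (chr5:123851601-123853600) lay almost exactly over a 2.0 kb run of E4 in DMSO (chr5:123851401-123853400). Its neighbour Hcar1, the lactate receptor, had E4 at the start in GSK-LSD1 and E2 in DMSO.

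Read as counts, TSS-type area was at least 1 kb larger in GSK-LSD1 for 7 of 8 receptors, all but Hcar2, and for 57.2% of all protein-coding genes. The median difference was 2.4 kb for the receptors and 1.4 kb for all genes, and the receptors' differences ran from 0.6 to 7.4 kb. The count was 4 of 8 with flanks of 5 kb, where 47.5% of genes were called, and 2 of 8 in the gene body, where 32.3% were. It was 4 of 8 among bins nearest to the receptor, with 41.2% of genes called, and 2 of 8 with E5 alone as TSS-type, with 17.9% called. With E5 alone the difference was negative at C5ar1 (-1.8 kb), C3ar1 (-3.0 kb) and Ptafr (-0.6 kb). At the start, a TSS-type state was present at 3 of 8 receptors in GSK-LSD1 and at 0 of 8 in DMSO. All genes had 53.5% in GSK-LSD1 and 50.5% in DMSO. Hcar2 is in this count because either of its ends could be the start. Its other end was E2 in both segmentations, and with that end as the start Hcar2 would not count. The 3 starts that were TSS-type in GSK-LSD1 and not in DMSO were those of Ltb4r1, Ptafr and, at its lower-coordinate end, Hcar2. Of all genes 3.93% had such a start, a share that includes the genes already TSS-type there in DMSO. In the lists read below, such starts were found at 3 of 12 family members, 3 of 13 Toll-like receptors and Cd14, and 2 of 10 chemokine receptors. They were also found at 1 of 14 ligand and enzyme genes and 0 of 29 signalling genes. When any bin within 1 kb counted, Ltb4r1 and Ptafr were TSS-type in both segmentations. C5ar1 and, again at its lower-coordinate end, Hcar2 were so in GSK-LSD1 alone.

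Combined E1 and E6 area was at least 1 kb larger in GSK-LSD1 at 8 of 8 receptors and at 57.9% of genes, with a median of 6.4 kb for the receptors and 2.6 kb for all genes. It was 9.8 kb in the Fpr1 window in GSK-LSD1 and 18.6 kb at C3ar1, and 0.0 kb at both in DMSO. For the 7 receptors other than Ptafr the DMSO value was 0.0 kb. Among bins nearest to the receptor the count was 4 of 8, with 44.6% of genes called. With flanks of 5 kb it was 3 of 8, with 48.6% of genes called, and the median was 0.4 kb for the receptors and 0.6 kb for all genes.

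E4 differed in direction among the receptors. It was at least 1 kb larger in GSK-LSD1 at 6 of 8 receptors, where 26.7% of genes met this, and at least 1 kb smaller at 2 of 8, Ltb4r1 and Ptafr, where 34.2% met this. The receptors' median difference was 5.8 kb, and over all genes it was 0.0 kb. Among bins nearest to the receptor, E4 was at least 1 kb larger at 4 of 8, with 22% of genes called. There the difference was only 0.6 kb at C3ar1 and 0.2 kb at Hcar2. Over the 8 windows together E4 held 63.2 kb in GSK-LSD1 and 43.0 kb in DMSO, a ratio of 1.47. Over the windows of all genes the ratio was 0.815.

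**Figure D3:**
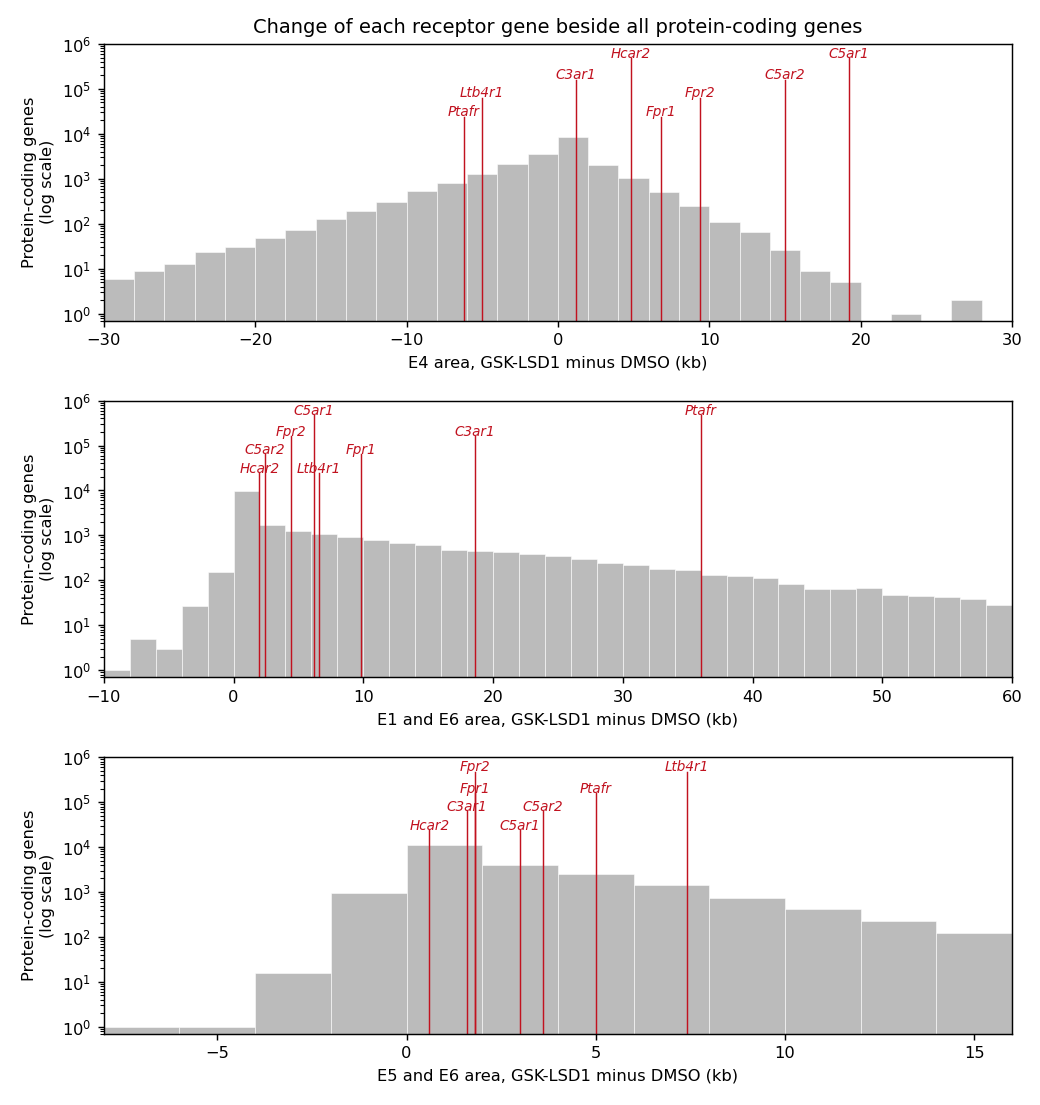
Difference in E4, in E1 and E6, and in TSS-type (E5 and E6) area, GSK-LSD1 minus DMSO in kb, for the receptors (red lines) over the histogram of all protein-coding genes (grey bars of 2 kb, log scale; genes beyond the axis limits are not drawn). C5ar1 (19.2 kb) and C5ar2 (15.0 kb) lie in the right tail of the E4 differences, and Ptafr (36 kb) lies towards the right of the E1 and E6 differences.

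Most of the DMSO chromatin in the receptors' windows was E2, and what it was in GSK-LSD1 differed from window to window. E2 covered 145.6 kb of the joined windows in GSK-LSD1 and 208.4 kb in DMSO. Of the E2 bins in DMSO, 21.1% were E4 in GSK-LSD1 (95% Wilson interval 18.7 to 23.7), against 5.9% in all gene windows, and 24.7% were E1 (22.1 to 27.4), against 16.8%. These intervals cover counting error only, and neighbouring bins are not independent. The E4 share was 50% at C5ar1, 45.2% at Ltb4r1, 42.6% at C5ar2, 35.1% at Hcar2, 33.3% at Fpr2, 18.3% at Fpr1, 4.07% at C3ar1 and 1.22% at Ptafr. Neighbours in this order had overlapping counting intervals, except Fpr1 (12.3 to 26.3) and C3ar1 (2.16 to 7.56).

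The E1 share was small in the windows of C5ar1, Ltb4r1, C5ar2 and Hcar2, where the E4 share was largest. Within these windows the order was not reversed, as C5ar1 was highest in both. E1 and E4 are shares of the same E2 area, so a larger share of one leaves less for the other. The E1 share was 57.1% at Ptafr, 32.2% at Fpr1, 31.7% at C3ar1 and 23.8% at Fpr2. It was 3.27% at C5ar1, 0.926% at C5ar2 and 0.746% at Hcar2, with no such bin at Ltb4r1. E2 was thus mostly E4 or unchanged in the windows of the C5a receptors, Ltb4r1 and Hcar2. In those of Ptafr and C3ar1 it was mostly E1 or unchanged, while the Fpr window pair had both. All E2 of the Ltb4r1 window in DMSO lay beyond the gene, from 5.24 to 19.84 kb from its start and mostly inside the neighbour Adcy4. None of it was nearest to Ltb4r1, so the Ltb4r1 share describes a neighbour's chromatin. GSK-LSD1 had 25 TSS-type regions in the windows, with a median length of 1600 bp, and 11 of them had no TSS-type overlap in DMSO, as did 34.1% of the GSK-LSD1 regions in all gene windows. DMSO had 16 regions, with a median length of 1300 bp, and each overlapped a GSK-LSD1 region, while 5.2% of the DMSO regions in all gene windows overlapped none.

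**Figure D4:**
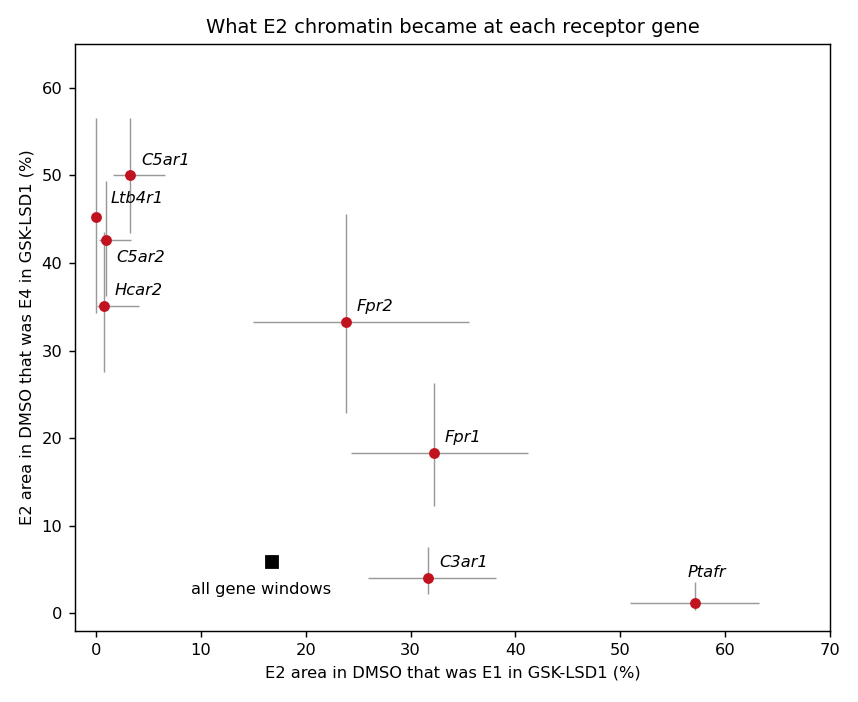
Share of each receptor window's DMSO E2 area that was E4 (vertical axis, %) or E1 (horizontal axis, %) in GSK-LSD1, with 95% Wilson intervals for counting error as grey lines and all gene windows as a black square. C5ar1, Ltb4r1, C5ar2 and Hcar2 lie high on the left, at 35.1 to 50% E4, and Ptafr lies at the lower right, at 57.1% E1.

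Other genes of the same pathway were read from lists chosen with earlier results of these data known. Of 12 family members and related receptors, 5 had at least 1 kb more TSS-type area in GSK-LSD1 and 0 had at least 1 kb less, where 57.2% of all genes had more and 0.855% had less. The list includes Fpr3, Fpr-rs3, Fpr-rs4, Fpr-rs6 and Fpr-rs7, at 0.0 kb in both segmentations, and Hcar1, whose window overlaps that of Hcar2. E4 area was at least 1 kb larger at 3 of the 12 and smaller by as much at 4, against 26.7% and 34.2% of all genes. For TSS-type area, the median difference of the list was 0.7 kb. Its largest differences were at Ltb4r2, whose window overlaps that of Ltb4r1, with 22.6 kb in GSK-LSD1 and 15.2 kb in DMSO, at the chemerin receptor Cmklr1, with 9.8 kb in GSK-LSD1 and 3.6 kb in DMSO, and at the sphingosine 1-phosphate receptor S1pr4, with 21.8 kb in GSK-LSD1 and 16 kb in DMSO.

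Genes of signalling proteins below the receptors mostly had TSS-type starts in both segmentations. All 29 had at least 1 kb more TSS-type area in GSK-LSD1, against 57.2% of all genes, with a median of 5.6 kb. A TSS-type state lay at the start of 28 of 29 in GSK-LSD1 and 28 of 29 in DMSO, against 53.5% and 50.5% of all genes. Ptk2b, a kinase of adhesion signalling, had 65.2 kb of TSS-type area in GSK-LSD1 and 30.6 kb in DMSO. Prex1, which activates Rac downstream of G protein βγ subunits and PI3 kinase, had 35.2 kb in GSK-LSD1 and 11.8 kb in DMSO. Vav1, another exchange factor for Rac, had 35.6 kb in GSK-LSD1 and 12.6 kb in DMSO. These genes differ in length, so their windows do too. E4 area was at least 1 kb larger in GSK-LSD1 at 6 of the 29 and smaller by as much at 20. Among all genes the shares were 26.7% and 34.2%.

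Ligands and the enzymes that make or destroy them had at least 1 kb more TSS-type area in GSK-LSD1 at 10 of 14 genes. The share of all genes was 57.2%, and the median of the list was 3.3 kb. C3, the source of C3a, had 17.0 kb in GSK-LSD1 and 6.2 kb in DMSO, and its start was TSS-type in GSK-LSD1 alone. Pla2g4a, the phospholipase that frees arachidonic acid, had 17.8 kb in GSK-LSD1 and 8.6 kb in DMSO. Alox5ap, which presents that acid to 5-lipoxygenase for leukotriene synthesis, had 16 kb in GSK-LSD1 and 8.2 kb in DMSO. E4 area was at least 1 kb larger at 3 of the 14 and smaller at 8, against 26.7% and 34.2% of all genes.

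Chemokine receptors of myeloid cells had at least 1 kb more TSS-type area at 9 of 10 genes, against 57.2% of all genes, with a median of 4.7 kb. Ccr1, a receptor for CC chemokines, had 16.6 kb in GSK-LSD1 and 6.2 kb in DMSO. Cxcr2, the receptor by which neutrophils follow CXC chemokines, had 7.4 kb in GSK-LSD1 and 0.0 kb in DMSO, and Cxcr4, which retains them in the marrow, had 12.4 kb in GSK-LSD1 and 5.0 kb in DMSO. E4 area of these chemokine receptor genes was at least 1 kb larger at 2 of 10 and smaller at 7, against 26.7% and 34.2% of all genes. Their combined E1 and E6 area had a median difference of 25.2 kb, where the 8 receptors had 6.4 kb.

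Toll-like receptors and Cd14, which share the sensing of microbes, had at least 1 kb more TSS-type area at 8 of 13 genes and less at 1, Tlr3. The shares of all genes were 57.2% and 0.855%, and the median of the list was 1.4 kb. The largest difference was at Cd14, the coreceptor for lipopolysaccharide, with 21.0 kb in GSK-LSD1 and 8.4 kb in DMSO. Tlr6 had 9.6 kb in GSK-LSD1 and 4.0 kb in DMSO, and Tlr12 had 6.4 kb in GSK-LSD1 and 3.2 kb in DMSO. E4 was at least 1 kb larger at 6 of 13 and smaller at 4, against 26.7% and 34.2% of all genes. No difference between these lists and the 8 receptors was tested.

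Finally, genes elsewhere were ranked by how closely their windows matched each receptor's, as the summed absolute difference of 12 values, the share of the window in each of 6 states in both segmentations. Naa16 was closest to C3ar1, at 11.5 percentage points, and Nt5c2 to Ptafr, at 14.9. For the other receptors the closest genes were Il6ra for Hcar2 (22.7), Zfp598 for Ltb4r1 (24.9), 1700042G07Rik for C5ar2 (25.2), 4930519L02Rik for Fpr1 (27.3), Avp for C5ar1 (27.9) and Ndufaf6 for Fpr2 (33.5). The next closest were Med18 for C3ar1, Lrrc8c for Ptafr, Zfp286 for Hcar2, Cbx2 for Ltb4r1, Pglyrp1 for C5ar2, Teddm3 for Fpr1, Oxt for C5ar1 and Il5 for Fpr2.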

How the data were processed

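Each deposited value is the label of a chromatin state, with no count or signal. Per the labels, the authors combined 3 marks into 1 segmentation per treatment, and the submitters' processing notes name Bowtie and the builds mm10 and GRCm38. The segmentation tool, its thresholds, the use of the input and whether both treatments were fitted together are not stated in the sources used here. How these steps affect the states could not be checked here.

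The segmentations, 162731 segments in GSK-LSD1 and 136061 in DMSO, were expanded to 200 bp bins, 13168874 in each on chromosomes 1 to 19 and X. Areas were summed in each gene and 20 kb on each side (windows of 42.2 to 58.8 kb for the receptors) with Python 3.11.15, numpy 2.4.6 and pandas 2.3.3. Genes, strands and promoters came from RefSeq (GRCm38.p6). Strand was given for 17274 of 21631 genes, and both ends served as starts for the rest. The table gives no exons. A gene was called for a difference of at least 1 kb. The windows were tested on simulated data. Members, lists and calls were chosen with earlier results of these data known. The genes named are the receptors, genes with an end in their windows, the 3 genes of each list with the largest TSS-type difference, and the 2 most like genes per receptor; others were named after their values were seen. 1 list gene taken by this rule is left out of the text. The input library was not analysed here.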

Additional observations from a re-analysis of the deposited data

How the results depend on the processing

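The count of receptors with at least 1 kb more TSS-type area, 7 of 8 against 57.2% of genes as reported, was 4 with flanks of 5 kb (47.5% of genes) or 10 kb (51.7%), 2 in the gene body (32.3%), 4 in bins nearest to the receptor (41.2%), 2 with E5 alone (17.9%) and 4 at a limit of 2 kb (44.9%). It was 7 or 8 under the other 5 alternatives. The median TSS-type difference as reported was 2.4 kb against 1.4 kb over all genes. It was 0.8 kb with 5 kb flanks (all genes 0.8 kb), 1.1 kb with 10 kb (1.0 kb) and 6.5 kb with 50 kb (3.0 kb). It was 0.1 kb in the gene body (0.2 kb) and 0.8 kb in nearest bins (0.4 kb). It was 0.4 kb with E5 alone (0.0 kb) and 7.0 kb with E4 added (0.6 kb). With E5 alone the difference was -1.8 kb at C5ar1, -3.0 kb at C3ar1 and -0.6 kb at Ptafr. With E4 added it was -1.2 kb at Ptafr, and with GSK-LSD1 regions shortened by a bin at each end it was -0.4 kb at Hcar2. The count for E1 and E6, 8 of 8 against 57.9% of genes, was 3 with 5 kb flanks (48.6%), 4 with 10 kb (52.4%), 2 in the gene body (41.2%) and 4 in nearest bins (44.6%). Their median, 6.4 kb against 2.6 kb, was 0.4 kb with 5 kb flanks (all genes 0.6 kb), 2.1 kb with 10 kb (1.4 kb), 17.0 kb with 50 kb (7.2 kb), 0.0 kb in the gene body (0.0 kb), 1.0 kb in nearest bins (0.0 kb), 2.5 kb for E1 alone (0.0 kb) and 3.3 kb for E6 alone (1.0 kb). The count for E4, 6 as reported, was 4 to 6 under all 6 alternatives, where 17 to 29.1% of genes were called. That for E1, E4, E5 and E6 together was 7 or 8, where 42.8 to 72.1% were called. C3ar1 had an E4 difference of -5.8 kb with 50 kb flanks. Over genes with any TSS-type area in the window, 78.6% had at least 1 kb more in place of 57.2%. The share of E2 that was E4, 21.1%, was 31.0% with 5 kb flanks. Smaller windows hold less chromatin and fewer neighbours by construction. No paired analysis was possible because each treatment has 1 segmentation. With no counts, depth is unknown.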
